A study of Mus musculus with 28 samples.

Results

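The tumors compared here were the 5 treated with 5-fluorouracil and immune checkpoint blockade (5-FU+ICB) and the 5 treated with 5-FU alone, 10 of the 28 tumors of the series, chosen by the treatment in their titles. The question was which RNAs differed when ICB was added to 5-FU. All tumors came from AB1-HA, a mouse mesothelioma line that carries the influenza hemagglutinin, grown under the skin of the right flank of BALB/c.AusBP mice aged 8 to 10 weeks, and each tumor was a bulk sample. Treatment began at a tumor area of 20 to 25 mm2. Both groups received 5-FU, an intravenous dose of 75 mg/kg. The 5-FU+ICB group also received intraperitoneal anti-CTLA-4 (100 µg) with anti-PD-L1 (100 µg), followed by 2 further doses of anti-PD-L1 at intervals of 2 days, and tumors were taken at day 7. The fits also held 4 control tumors given PBS and 5 given ICB alone at the same antibody doses, also taken at day 7. Neither of these groups received 5-FU. All 19 tumors shared the estimate of the spread. Of 55341 gene rows in the count table, 17916 passed the filter on low counts and were compared.

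As background, 5-FU blocks thymidylate synthase and damages dividing cells, whereas antibodies to CTLA-4 and PD-L1 release T cells from inhibition. Activated T cells and NK cells kill with granzymes and perforin and secrete interferon gamma. That cytokine signals through JAK kinases and induces genes that carry the gamma-activated site (GAS) or the interferon-stimulated response element (ISRE), the latter bound by IRF1. Its targets include the guanylate-binding proteins (GBPs), the immunity-related GTPases, the chemokines CXCL9, CXCL10 and CXCL11, antigen presentation genes and PD-L1 itself. Macrophages exposed to it make the inducible nitric oxide synthase.

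Total estimated counts per tumor ranged from 23541733 to 32424724 in the 5-FU group and from 25636834 to 32840701 in the 5-FU+ICB group. Levels are given in CPM, counts divided by a library size scaled with TMM (trimmed mean of M-values) and brought to a common total, and 3 counts, taken as the floor, equalled 0.0806 to 0.152 CPM in these tumors, counting error only. In 5-FU+ICB, tumors 2 and 5 stood apart. Msln, the gene of mesothelin and a marker of mesothelial cells, was at 44.8 to 173 CPM in 5-FU tumors and at 33.7, 159, 67.2, 55.3 and 0.505 CPM in 5-FU+ICB tumors 1 to 5. It was near absent in 5-FU+ICB tumor 5. Other genes of the list for mesothelial and tumor cell identity went the other way there, as Krt19, a keratin, was at 49.4 CPM against at most 1.92 CPM in the other 9 tumors, and the list mean of 2.72 log2 CPM was the highest of the 10. The same tumor held 496 CPM of Glycam1, the product of high endothelial venules in lymph nodes, where the other 9 tumors held at most 3.72, and 353 CPM of Ccl19, a chemokine of lymphoid tissue, where they held at most 8.15. Its share of mitochondrial counts was 16.1%, against 2.34% to 6.80% in the other 9 tumors, and it had the smallest TMM factor, 0.774. Acta1, a skeletal muscle actin, was at 2225 CPM in it. The 2 tumors numbered 2 were almost free of muscle RNA, with 3.84 CPM of Acta1 in 5-FU and 0.266 CPM in 5-FU+ICB, against 286 CPM or more in each of the other 8. 5-FU+ICB tumor 2 also held less Cd3e, a T cell receptor component, and less Ptprc, a leukocyte marker, than 4 of the 5 5-FU tumors. Results are therefore given with all tumors and, where calls changed, without 5-FU+ICB tumor 5 or tumor 2. In bulk tumors, fewer cells of a type and less RNA per cell cannot be told apart.

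Of 17916 genes, 2 were differentially expressed genes (DEGs) in edgeR, or 0.0112%, where a DEG had a Benjamini-Hochberg adjusted p below 0.05 in the quasi-likelihood test and changed by more than 0.5 on the log2 scale. Both were higher in 5-FU+ICB, and 2983 genes had an unadjusted p under 0.05, of which 2281 were higher. DESeq2's Wald test, fitted like edgeR's over the 19 tumors and with the same thresholds, called 447 genes higher (2.46% of 18134 with an adjusted p) and 92 lower (0.507%). These held both of edgeR's. The 5 values of 5-FU+ICB lay wholly above the 5 values of 5-FU for 170 genes (0.949%) and wholly below for 114 (0.636%). Of the 524 DESeq2 calls that edgeR also tested, 103 had no overlap. These counts depended on the PBS and ICB tumors in the fit, as both tools called fewer genes with only the 2 compared groups, given further below. They also depended on single tumors. Without 5-FU+ICB tumor 5, DESeq2 called 112 higher (0.643%) and 30 lower (0.172%), and 128 of the 142 had been called with all tumors. Without 5-FU+ICB tumor 2, edgeR called 1948 genes (10.9%), 1443 of them higher (8.09%) and 505 lower (2.83%), and DESeq2 called 2029 higher (11.7%) and 1125 lower (6.49%). Without 5-FU tumor 3 edgeR called 640, of which 603 were higher, and without each of the other 8 tumors edgeR called at most 2. DESeq2 ranged from 94 calls without 5-FU tumor 4 to 3154 without 5-FU+ICB tumor 2, with 119, 155 and 1876 without 5-FU tumors 1, 2 and 3 and 193 and 244 without 5-FU+ICB tumors 1 and 4. In the gene lists that follow, "called" means DESeq2's test with Benjamini-Hochberg adjustment unless edgeR is named, and the adjusted p of both is given for the genes that matter. The median log2 fold change of all tested genes was 0.02.

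Gzmb and Cdc42ep2 were edgeR's DEGs. Gzmb, on chromosome 14 from 56258838 to 56262260 (GRCm38), encodes granzyme B, the protease with which killer cells trigger apoptosis. It was at 22.7, 34.0, 28.3, 15.0 and 21.2 CPM in 5-FU tumors 1 to 5 and at 85.0, 61.2, 56.4, 85.1 and 84.3 CPM in 5-FU+ICB tumors 1 to 5, so that the lowest 5-FU+ICB tumor lay above the highest 5-FU tumor. Gzmb rose by a log2 fold change of 1.62 (SE 0.25, edgeR adjusted p = 0.0498, DESeq2 adjusted p = 2.96e-06). Cdc42ep2 (chromosome 19, 5915636 to 5924816), an effector of the small GTPase CDC42 that shapes the actin cytoskeleton, was at 12.3, 10.6, 17.3, 10.6 and 12.8 CPM in 5-FU and 35.5, 24.0, 23.9, 21.0 and 27.2 CPM in 5-FU+ICB tumors, again without overlap. It rose by 1.05 on the log2 scale (SE 0.17, edgeR adjusted p = 0.0498). Both lay close to the threshold, and with 5-FU+ICB tumor 5 left out both had an edgeR adjusted p of 0.0630. Gzmb remained a DEG in edgeR without 5-FU tumor 2, 5-FU tumor 3 or 5-FU+ICB tumor 2, and Cdc42ep2 without 5-FU tumor 3 or 5-FU+ICB tumor 2. Neither was a DEG without any 1 of the other tumors, where the adjusted p of Gzmb reached 0.161. Over the 10 omissions the log2 fold change of Gzmb ranged from 1.49 to 1.77.

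Among immune metabolic enzymes, Nos2, Acod1, Ido1, Ido2 and Ass1 were called higher. Nos2 (chromosome 11, 78920787 to 78960254) encodes the inducible nitric oxide synthase. Its level was 6.45, 7.40, 19.6, 2.19 and 8.69 CPM in 5-FU and 105, 43.0, 81.9, 202 and 41.3 CPM in 5-FU+ICB tumors, and the groups did not overlap. With a log2 fold change of 3.42 (SE 0.56) it narrowly missed edgeR's threshold (adjusted p = 0.0512) and passed DESeq2's (adjusted p = 7.12e-07), and without 5-FU+ICB tumor 5 it was an edgeR DEG (adjusted p = 0.0423) together with Batf2, a transcription factor gene named after its values were seen (log2 fold change 1.32, adjusted p = 0.0187). Acod1, whose enzyme makes itaconate in activated macrophages, was at 5.59, 12.7, 24.7, 1.67 and 14.01 CPM in 5-FU and 99.1, 28.0, 88.7, 100.0 and 32.1 CPM in 5-FU+ICB tumors (log2 fold change 2.57, DESeq2 adjusted p = 0.000806). Ido1, the enzyme that turns tryptophan into kynurenine, was low, at 0.205 to 1.24 CPM and 2.51 to 10.7 CPM, and also did not overlap. The highest value, in 5-FU+ICB tumor 5, lay far above the other 4, and the log2 fold change of Ido1 was 2.26 with that tumor and 1.65 without it. Of the 9 genes of this list, 5 were called higher and 0 lower, 3 did not overlap, and the median log2 fold change was 1.69. Without tumor 5, 4 were called, all but Ass1, which makes the arginine precursor. Arg1, arginase, which competes with Nos2 for arginine, was at 21.0 to 59.0 CPM and 5.45 to 249.9 CPM and was not called (log2 fold change 1.495, SE 0.71, DESeq2 adjusted p = 0.195). Its lowest value of the 10 tumors was that of 5-FU+ICB tumor 5.

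**Figure D1:**
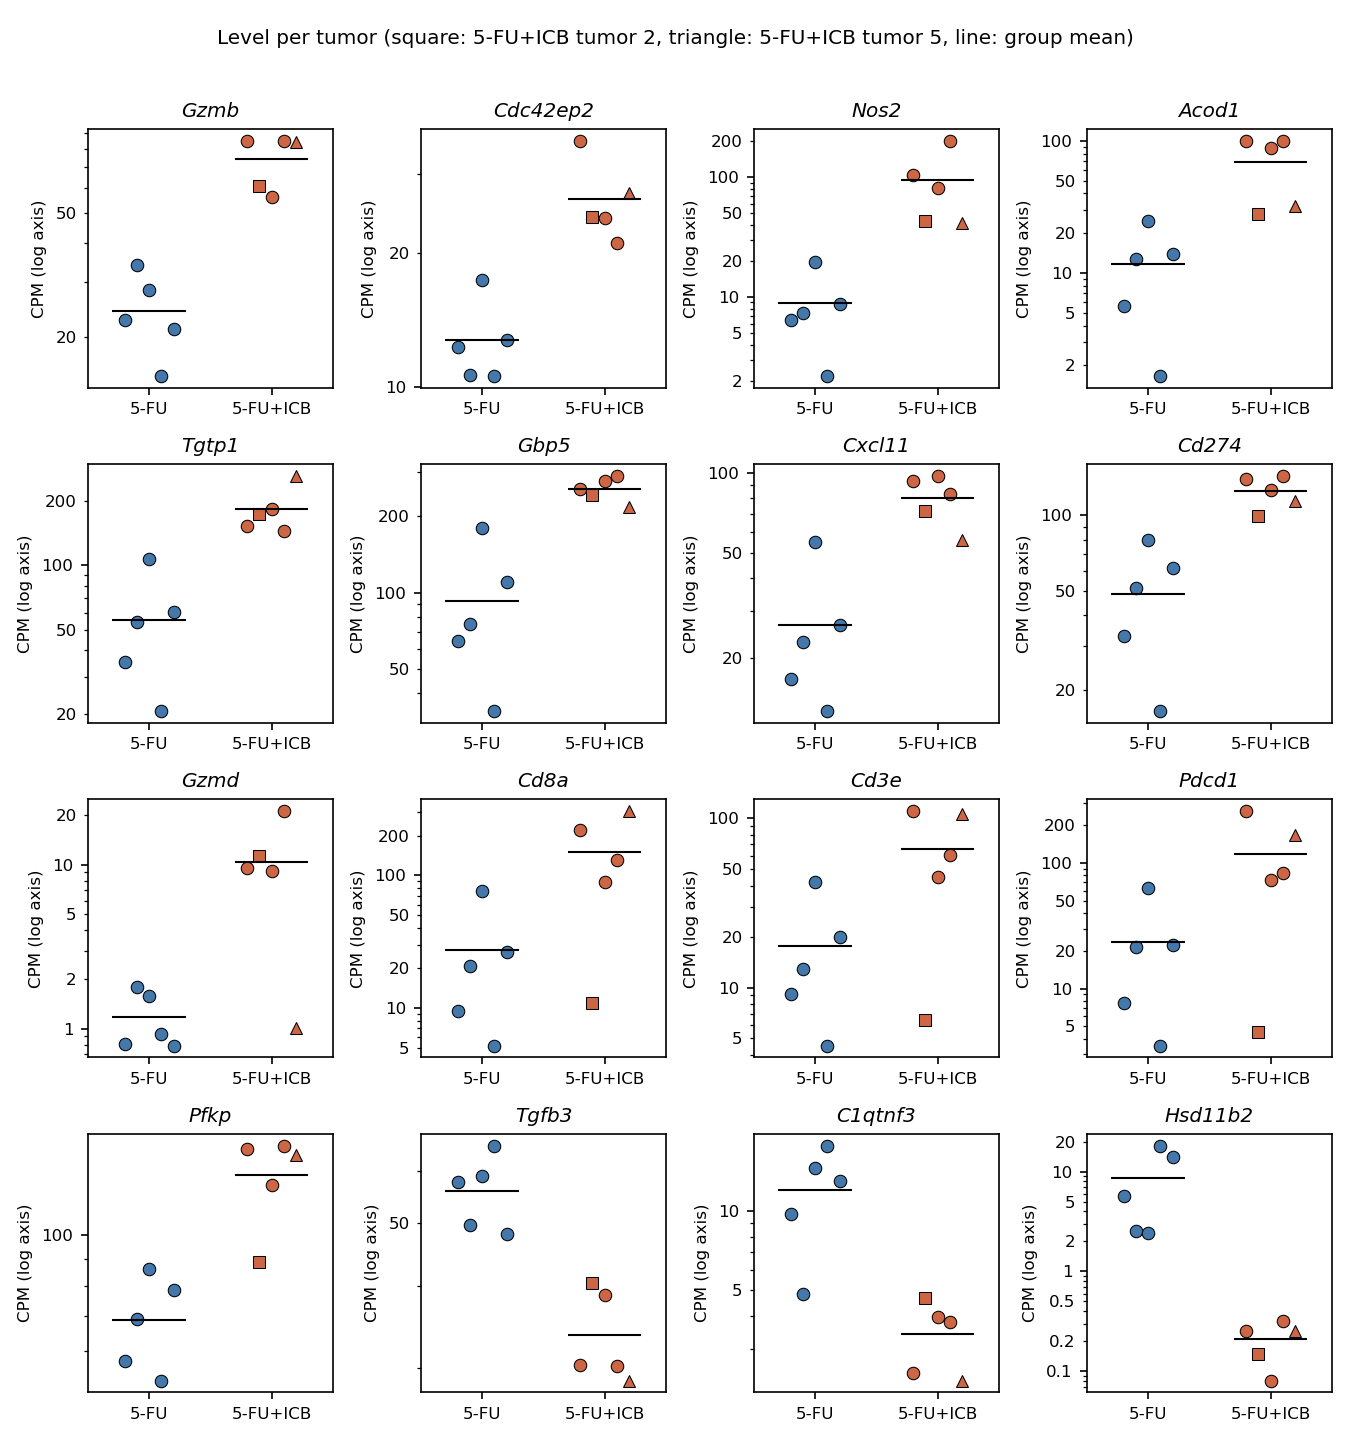
CPM on a log axis for 16 genes in each of the 5 5-FU and 5 5-FU+ICB tumors, with the group mean as a line, 5-FU+ICB tumor 2 as a square and tumor 5 as a triangle. The groups do not overlap for Gzmb, Cdc42ep2, Nos2, Acod1, Tgtp1, Gbp5, Cxcl11, Cd274, Pfkp, Tgfb3, C1qtnf3 and Hsd11b2, whereas 5-FU+ICB tumor 2 lies among the 5-FU tumors for Cd8a, Cd3e and Pdcd1, and tumor 5 for Gzmd.

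The cytotoxic genes split into sets with different patterns over the tumors. Of 14 genes of granules and death ligands, 8 were called higher and 0 lower, with a median log2 fold change of 1.60. They were Gzmb, Gzmc, Gzmd, Gzme, Gzmf, Gzmg, Gzmk and Prf1, the gene of perforin. Gzmd was at 0.806, 1.80, 1.60, 0.936 and 0.790 CPM in 5-FU tumors and at 9.57, 11.2, 9.12, 21.3 and 1.01 CPM in 5-FU+ICB tumors. It was thus high in 5-FU+ICB tumors 1 to 4, tumor 2 included, and at the 5-FU level in tumor 5. Gzmc, Gzme, Gzmf and Gzmg had the same shape, with 15.8, 0.606, 0.404 and 0.0505 CPM in 5-FU+ICB tumor 5 and with lowest values of 53.3, 3.72, 5.87 and 0.964 CPM in the other 4. With all tumors, the log2 fold change of Gzmd was 3.16 (SE 0.78, DESeq2 adjusted p = 0.00185, edgeR adjusted p = 0.123), and without tumor 5 it was 3.45 (DESeq2 adjusted p = 8.01e-05). These 5 genes are related in sequence. In the GENCODE M21 transcripts, 38.2% of the 31-base words of Gzmd and 42.1% of those of Gzme occur in another gene, so that reads may have been divided between them, whereas for Gzmb the share was 1.35%. Gzmk had the opposite shape. It was at 13.6, 0.531, 4.58, 6.32 and 62.1 CPM in 5-FU+ICB tumors 1 to 5, highest in tumor 5 and at the 5-FU level (0.351 to 3.77 CPM) in tumor 2, and it was not called without tumor 5 (DESeq2 adjusted p = 0.127). Prf1 was at 10.1 to 56.5 CPM in 5-FU and 34.0 to 105 CPM in 5-FU+ICB tumors (log2 fold change 1.58, DESeq2 adjusted p = 0.00761). Gzma, another granzyme, was at 15.1 to 70.0 CPM and 31.8 to 76.3 CPM and was not called (adjusted p = 0.491). Without tumor 5, 7 of the 14 were called, all but Gzmk of the 8, and without 5-FU+ICB tumor 2, 13.

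Genes of the T cell receptor and CD8 were higher on average and overlapped between the groups in every case. Of 15 genes of the T cell receptor complex and its proximal signaling, 10 were called higher, among them Cd3e, Lck and Zap70, and the median log2 fold change was 1.84, but 0 of the 15 separated the groups and 0 were called without 5-FU+ICB tumor 5. Leaving out 5-FU+ICB tumor 2 had the opposite effect, with 14 of the 15 and both CD8 chains called by edgeR as well as by DESeq2 and a median of 2.12. Cd8a, a chain of the CD8 co-receptor of killer T cells, was at 9.45, 20.6, 76.3, 5.17 and 26.2 CPM in 5-FU tumors and at 219, 10.9, 89.4, 130.3 and 307 CPM in 5-FU+ICB tumors. 5-FU tumor 3 nearly reached 5-FU+ICB tumor 3, and 5-FU+ICB tumor 2 lay within the 5-FU range. The log2 fold change of Cd8a was 2.46 (SE 0.69, DESeq2 adjusted p = 0.0148, edgeR adjusted p = 0.146), and 2.04 without tumor 5 (DESeq2 adjusted p = 0.123). The helper T cell gene Cd4 was at 10.8 to 105 CPM and 7.73 to 182 CPM and was not called (adjusted p = 0.301). Nor was Foxp3, which defines regulatory T cells, at 7.09 to 24.3 CPM and 8.17 to 27.5 CPM (log2 fold change 0.57, DESeq2 adjusted p = 0.467). Of 7 regulatory T cell genes 1 was called, Tnfrsf8, and it was not called without tumor 5. Without tumor 2, 4 of the 7 were called.

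Among 11 checkpoint and exhaustion receptors, 1 was called higher, Pdcd1, the gene of PD-1, and the median log2 fold change was 1.14. Without 5-FU+ICB tumor 2, DESeq2 called 9 of the 11 and edgeR 6. Pdcd1 was at 7.63, 21.6, 62.7, 3.51 and 22.3 CPM in 5-FU and 259.9, 4.54, 72.6, 83.7 and 167 CPM in 5-FU+ICB tumors. Its group means differed widely (23.5 ± 23.4 against 118 ± 98.2 CPM, mean ± SD, n = 5 each), yet 5-FU+ICB tumor 2 was lower than 4 of the 5 5-FU tumors, and without 5-FU+ICB tumor 5 Pdcd1 was not called (DESeq2 adjusted p = 0.255). Ctla4, the receptor bound by anti-CTLA-4, was at 5.26 to 17.9 CPM and 2.45 to 27.7 CPM (log2 fold change 0.35, SE 0.51, DESeq2 adjusted p = 0.709). Cd274 (chromosome 19, 29367455 to 29388095), which encodes PD-L1, was at 32.8, 51.4, 79.6, 16.5 and 61.7 CPM in 5-FU and 140.2, 99.8, 127, 144 and 114 CPM in 5-FU+ICB tumors without overlap. Its log2 fold change was 1.37 (SE 0.29, DESeq2 adjusted p = 0.00232, edgeR adjusted p = 0.0902), and it was called without tumor 5 as well (DESeq2 adjusted p = 0.00565). Pdcd1lg2, the gene of PD-L2, was called with all tumors (log2 fold change 2.08, adjusted p = 0.0364) but not without tumor 5 (adjusted p = 0.127), and 5-FU+ICB tumor 2 was low for it at 11.2 CPM.

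Genes of the interferon gamma axis, from the cytokine to its feedback inhibitor, were higher on average. All 18 genes of the list had positive log2 fold changes, with a median of 0.94. DESeq2 called 8 of them higher and 0 lower with all tumors, and called 5 higher without 5-FU+ICB tumor 5 and 13 without tumor 2. The cytokine gene Ifng was at 1.32, 1.48, 5.19, 0.614 and 2.48 CPM in 5-FU and at 11.9, 4.13, 8.76, 8.15 and 12.5 CPM in 5-FU+ICB tumors. The overlap was between 5-FU+ICB tumor 2 and 5-FU tumor 3. Its log2 fold change was 2.05 (SE 0.43, DESeq2 adjusted p = 0.00143, edgeR adjusted p = 0.0902). Il12rb2 and Il18rap belong to the receptors through which IL-12 and IL-18 elicit interferon gamma. Il18rap was at 42.4 to 71.2 CPM and 88.1 to 118 CPM without overlap (log2 fold change 0.85, DESeq2 adjusted p = 0.000545), and Il12rb2 was at 1.37 to 7.18 CPM and 3.92 to 35.1 CPM (log2 fold change 2.06, adjusted p = 0.00522). Downstream, Irf1, a transcription factor gene, was at 177, 228, 302, 129 and 235 CPM in 5-FU and 392, 488, 481, 459 and 284 CPM in 5-FU+ICB tumors, highest in 5-FU+ICB tumor 2 and, of that group, lowest in tumor 5, which 5-FU tumor 3 exceeded. Its log2 fold change was 0.97 (SE 0.22, DESeq2 adjusted p = 0.00313). Socs1, which shuts off JAK kinases, was at 11.8 to 36.5 CPM and 40.7 to 62.9 CPM without overlap (log2 fold change 1.28, adjusted p = 0.00791).

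The GBPs and the immunity-related GTPases are interferon-induced GTPases that attack intracellular pathogens. In both lists 5-FU+ICB tumor 2, poor in T cell RNA, lay above the mean of the 5-FU tumors. All 11 GBPs had positive log2 fold changes with a median of 1.01. DESeq2 called 7 with all tumors and 9 without 5-FU+ICB tumor 5, and for 5, Gbp5, Gbp6, Gbp9, Gbp10 and Gbp11, the groups did not overlap. Gbp5 (chromosome 3, 142493978 to 142522344) was at 64.5, 74.9, 179, 34.1 and 109.8 CPM in 5-FU and 257, 244, 276, 289 and 219 CPM in 5-FU+ICB tumors. It varied over a wide range in 5-FU tumors and a narrow one in 5-FU+ICB tumors (92.6 ± 55.6 against 257 ± 27.5 CPM, mean ± SD, n = 5). The log2 fold change was 1.47 (SE 0.31, DESeq2 adjusted p = 0.00185, edgeR adjusted p = 0.0902). Gbp2b was at 1325, 1437, 1335, 1205 and 464 CPM in 5-FU+ICB tumors 1 to 5 and at 168 to 831 CPM in 5-FU tumors. Here tumor 5 lay far below the other 4 and tumor 2 was highest. Gbp2 and Gbp3 had the same shape and were called without tumor 5 (adjusted p = 0.0203 and 0.0182, DESeq2) but not with it (adjusted p = 0.0639 and 0.0523). Gbp6 and Gbp10 share 31-base words with other genes for 74.2% and 89.8% of their transcript sequence, so that their values cannot be assigned to 1 gene for certain.

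Of 7 immunity-related GTPases, 6 were called higher with all tumors and 5 without 5-FU+ICB tumor 5, and the median log2 fold change was 0.85. The mean log2 CPM of the list did not overlap, with 6.82 to 8.40 in 5-FU tumors and 8.46 to 8.86 in 5-FU+ICB tumors. Tgtp1 was at 35.2, 54.0, 108, 20.8 and 60.5 CPM in 5-FU and 153, 175, 183, 145 and 264 CPM in 5-FU+ICB tumors without overlap (log2 fold change 1.73, SE 0.32, edgeR adjusted p = 0.0807, DESeq2 adjusted p = 0.000195). Its neighbor Tgtp2 holds 83.2% of the 31-base words of Tgtp1, and for Tgtp2 the log2 fold change was 0.76 (DESeq2 adjusted p = 0.0246). Irgm2 was at 110.0 to 251 CPM and 241 to 416 CPM (log2 fold change 0.88, adjusted p = 0.00143), with its highest value in 5-FU+ICB tumor 2.

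The upstream sequences of 5 of these genes are shown because they carry the GAS or ISRE words through which interferon gamma is known to act, in genes that were called together. They are the 250 bases before a transcription start, 5′ to 3′ on the coding strand, from RefSeq on GRCm38.p6. For Gbp5, Irgm2 and Tgtp1 the window lies inside the gene span of GENCODE, so the start used is not the outermost annotated start. Capitals mark the GAS word TTCNNNGAA and the ISRE word, GAAA and GAAA with any 2 bases between them, both searched on both strands. Over all 32851 promoter windows of the same length, 7.02% held the GAS word, 2.98% the ISRE word and 0.332% both.
Gbp5, chr3:142496684-142496933, plus strand: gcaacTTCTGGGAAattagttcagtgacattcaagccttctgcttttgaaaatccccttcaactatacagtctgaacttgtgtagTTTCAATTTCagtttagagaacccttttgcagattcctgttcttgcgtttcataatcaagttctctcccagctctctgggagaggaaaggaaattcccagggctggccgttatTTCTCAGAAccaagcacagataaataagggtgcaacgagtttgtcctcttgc
Irgm2, chr11:58214727-58214976, plus strand: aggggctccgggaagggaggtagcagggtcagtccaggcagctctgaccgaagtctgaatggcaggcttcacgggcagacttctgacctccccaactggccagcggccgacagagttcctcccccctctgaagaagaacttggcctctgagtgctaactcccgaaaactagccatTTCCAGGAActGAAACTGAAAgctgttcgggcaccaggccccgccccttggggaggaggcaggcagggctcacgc
Tgtp1, chr11:48992247-48992496, minus strand: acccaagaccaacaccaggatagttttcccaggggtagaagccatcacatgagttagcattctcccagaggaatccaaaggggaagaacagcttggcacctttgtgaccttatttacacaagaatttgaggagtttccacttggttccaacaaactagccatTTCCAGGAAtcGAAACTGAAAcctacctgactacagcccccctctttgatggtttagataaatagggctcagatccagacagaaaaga
Irf1, chr11:53769764-53770013, plus strand: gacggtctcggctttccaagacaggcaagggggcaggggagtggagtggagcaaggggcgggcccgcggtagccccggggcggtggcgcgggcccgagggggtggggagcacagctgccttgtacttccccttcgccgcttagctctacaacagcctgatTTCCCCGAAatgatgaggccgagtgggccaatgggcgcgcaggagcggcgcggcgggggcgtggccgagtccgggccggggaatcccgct
Cxcl10, chr5:92348890-92349139, minus strand: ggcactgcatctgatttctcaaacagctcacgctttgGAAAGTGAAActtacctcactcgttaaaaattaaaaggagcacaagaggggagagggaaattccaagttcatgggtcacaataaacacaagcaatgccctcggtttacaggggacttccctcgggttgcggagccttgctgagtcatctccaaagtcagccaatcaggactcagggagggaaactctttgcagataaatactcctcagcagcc
Gbp5 had 2 GAS words and 1 ISRE word. In Irgm2 and Tgtp1 a GAS word stood just before an ISRE word, 75 and 64 bases from the start in Irgm2 and 88 and 77 in Tgtp1, counted from the first base of each word. Irf1 had 2 windows, with 1 GAS word in that shown and neither word in the other. Cxcl10 had 1 ISRE word. Of 28 genes looked up, the GBPs, immunity-related GTPases, chemokines, interferon signaling genes and called genes described here, 19 had a window in the table and 13 of those held at least 1 of the words. Windows of Cxcl9, Cd274, Acod1, Tap1, Gzmb and Cdc42ep2 held neither. The genes were chosen with their values known, so the counts are a description, and a word in a sequence is not evidence of binding.

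Of the chemokine genes that interferon gamma induces, Cxcl10 and Cxcl11 were called higher. Cxcl11 was at 16.7, 22.99, 54.8, 12.7 and 26.7 CPM in 5-FU and 93.2, 71.5, 97.2, 83.2 and 56.0 CPM in 5-FU+ICB tumors, where the lowest 5-FU+ICB tumor only just exceeded the highest 5-FU tumor (log2 fold change 1.59, SE 0.30, DESeq2 adjusted p = 0.000545, edgeR adjusted p = 0.0807). Cxcl10 was at 67.5 to 202 CPM and 199.98 to 348 CPM (log2 fold change 1.20, DESeq2 adjusted p = 0.00101). Cxcl9 varied widely among 5-FU tumors, from 141 to 1602 CPM, and was not called (log2 fold change 1.24, adjusted p = 0.136). On the T cell side, the receptor gene Cxcr6 and the chemokine gene Ccl5 were called with all tumors (log2 fold changes 2.81 and 1.89, DESeq2 adjusted p = 0.0129 and 0.0498) and not without 5-FU+ICB tumor 5 (adjusted p = 0.148 and 0.234). Of the 12 genes of this list, 4 were called higher with all tumors. Without tumor 5, 2 were called, Cxcl10 and Cxcl11, and without tumor 2, 7.

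**Figure D2:**
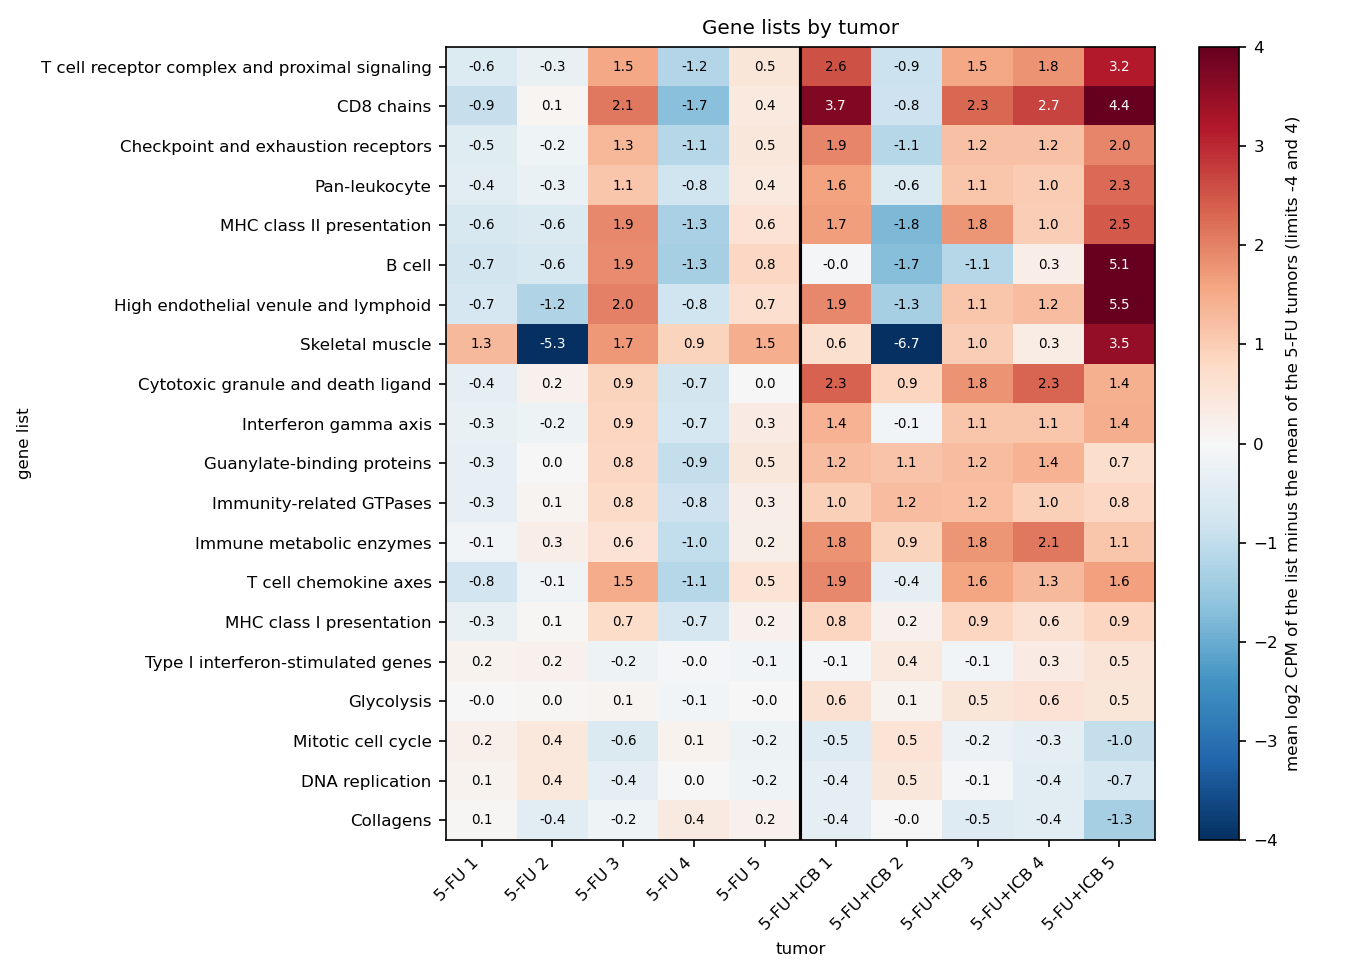
Mean log2 CPM of 20 gene lists in each of the 10 tumors, minus the mean of the 5 5-FU tumors, in color and as a number (color limits of -4 and 4). In 5-FU+ICB tumor 2, T cell, checkpoint receptor and MHC class II lists lie below the 5-FU mean while the GBP and immunity-related GTPase lists lie above it, and in tumor 5 the B cell and lymphoid lists lie far above all other tumors.

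Calls among antigen presentation genes depended on 5-FU+ICB tumor 2. Of 15 MHC class I genes tested, 1 was called higher, Tap1, which pumps peptides into the endoplasmic reticulum (173 to 462 CPM and 412 to 569.6 CPM, log2 fold change 0.81, DESeq2 adjusted p = 0.0118). The class I genes H2-K1 and B2m had log2 fold changes of 0.63 and 0.71 (adjusted p = 0.251 and 0.195), and for both 5-FU+ICB tumor 2 was at the 5-FU level. Without that tumor, DESeq2 called 11 of the 15 higher and edgeR 6. Of 11 MHC class II genes 0 were called by DESeq2 and 0 by edgeR, although their median log2 fold change was 0.99 and 2 had an unadjusted edgeR p under 0.05. Without 5-FU+ICB tumor 2, DESeq2 called 3 of the 11 and edgeR 1. Type I interferon-stimulated genes had a median of 0.35, and 0 of 20 were called by either tool, with 5 at an unadjusted edgeR p under 0.05. The groups did not overlap for 2 of them, Stat2 and Irf9. Among 13 genes of cell death pathways 3 were called, Fas, Ripk3 and Zbp1. Zbp1, a sensor of Z-form nucleic acids that starts necroptosis, was at 123, 155, 172, 87.5 and 155 CPM in 5-FU and 214, 223, 224, 221 and 208 CPM in 5-FU+ICB tumors without overlap (log2 fold change 0.66, SE 0.16, DESeq2 adjusted p = 0.00957), and was the one of the 3 called without tumor 5 (adjusted p = 0.0236). Tnf and Il1b, genes of the inflammatory cytokines TNF and IL-1 beta, were not called (log2 fold changes 0.43 and -0.30, SE 0.43 and 0.56, adjusted p = 0.587 and 0.776). Of 19 genes of the TNF, NF-kB and IL-6 pathway, 18 had positive log2 fold changes, with a median of 0.43. DESeq2 called 3 of these higher with all tumors, Lta, Traf1 and Icam1, 0 without 5-FU+ICB tumor 5 and 8 without tumor 2. Of 13 genes of the IL-1 family and inflammasome 0 were called, and 4 higher without tumor 2.

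Genes of glycolysis were higher on average. All 17 had positive log2 fold changes, with a median of 0.42. DESeq2 called 5 of them higher, and the groups did not overlap for 5, Gpi1, Pfkl, Pfkp, Pgk1 and Ldha. The mean log2 CPM of the list was 7.19 to 7.42 in 5-FU tumors and 7.45 to 7.92 in 5-FU+ICB tumors. Pfkp, a phosphofructokinase, was at 57.4, 69.2, 86.0, 52.7 and 78.4 CPM in 5-FU and 145, 88.5, 124, 148 and 142 CPM in 5-FU+ICB tumors, 5-FU+ICB tumor 2 being only slightly above 5-FU tumor 3. Its log2 fold change was 0.92 (SE 0.18, edgeR adjusted p = 0.0807, DESeq2 adjusted p = 0.00101). Slc2a1, the glucose transporter GLUT1, was at 35.2 to 61.4 CPM and 58.9 to 97.3 CPM (log2 fold change 0.79, DESeq2 adjusted p = 0.0151). Gpi1 and Pgk1 had log2 fold changes of 0.53 and 0.57 (adjusted p = 0.00185 and 0.0405) and were not called without tumor 5, with 0.45 for Gpi1 (adjusted p = 0.00966) and 0.53 for Pgk1 (adjusted p = 0.174), while Pfkl was then called. Of 17 further targets of the hypoxia factor HIF-1, 2 were called, Ankrd37 and the glucose transporter gene Slc2a3, 0 without tumor 5 and 5 without tumor 2.

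**Figure D3:**
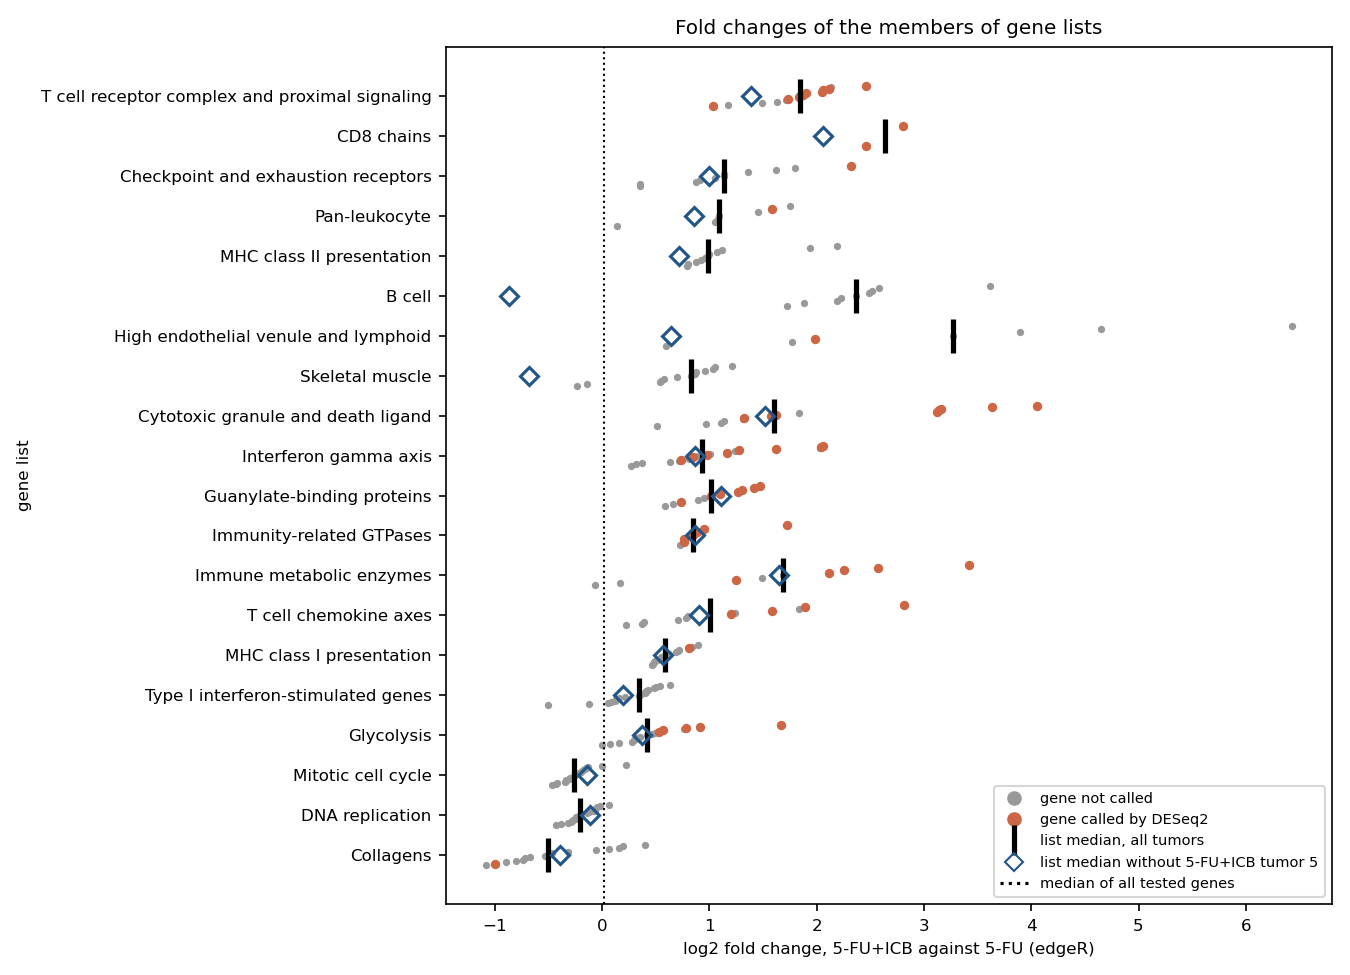
Log2 fold change of 5-FU+ICB against 5-FU (edgeR) for each member of 20 gene lists, with members called by DESeq2 in orange, list medians with all tumors as bars and without 5-FU+ICB tumor 5 as diamonds, and the median of all tested genes, 0.02, as a dotted line. The medians of the B cell (2.37 and -0.87), lymphoid (3.27 and 0.64) and skeletal muscle (0.83 and -0.68) lists move furthest when tumor 5 is left out, while those of the GBPs (1.01 and 1.11) and of glycolysis (0.42 and 0.37) move little.

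In lists for other cell types, medians or calls often changed without 5-FU+ICB tumor 5 or without tumor 2. Of 9 B cell genes 0 were called by edgeR, and 0 of the 2 with an adjusted p by DESeq2 (4 at an unadjusted edgeR p under 0.05), and their median log2 fold change was 2.37 with tumor 5 and -0.87 without it. Ccl21a, another chemokine of lymphoid tissue, was at 250.2 CPM in tumor 5 and at most 11.7 CPM in the other 9. In the lymphoid list, 1 of the 4 genes with a DESeq2 adjusted p was called, Fut7, with 0 called without tumor 5 and 3 without tumor 2. Glycam1, Ccl19 and Ccl21a had no DESeq2 adjusted p and were not called by edgeR (adjusted p = 0.135, 0.146 and 0.224). Among 17 macrophage genes 2 were called, Nos2 and Marco, a scavenger receptor gene near the floor in 5-FU tumors, at 0.0353 to 0.266 CPM, and at 4.98, 0.0295, 1.00, 2.28 and 6.61 CPM in 5-FU+ICB tumors (log2 fold change 4.41, DESeq2 adjusted p = 0.00233). Of 5 monocyte genes tested 0 were called with all tumors and 4 higher without tumor 2. All 7 pan-leukocyte genes had positive log2 fold changes, with a median of 1.09. DESeq2 called 1 of them, Coro1a, with all tumors, 0 without tumor 5 and 6 without tumor 2, where 11.7% of all genes were called higher. The pan-leukocyte gene Ptprc, which encodes CD45, was at 135, 140.0, 329, 93.5 and 268 CPM in 5-FU and 456, 100.0, 339, 387 and 729 CPM in 5-FU+ICB tumors and was not called (log2 fold change 1.06, SE 0.40, adjusted p = 0.124). 5-FU tumors 3 and 5 were the richest of their group in it, and 5-FU+ICB tumor 2 was poorer than 4 of the 5 5-FU tumors. Cd3e was likewise highest of its group in 5-FU tumors 3 and 5 and low in 5-FU+ICB tumor 2, and the part of leukocyte content in the fold changes of T cell genes was not tested.

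Calls in other immune lists depended on the same tumors. Of 12 NK cell receptors and T-box factors, 4 were called higher, Klrd1, Klrc1, Klrc2 and Tbx21, and of 14 costimulatory genes 3, Tnfrsf9, Cd40 and Cd226. The medians were 0.71 and 1.27, and without 5-FU+ICB tumor 5 DESeq2 called 0 of either list. Without 5-FU+ICB tumor 2, DESeq2 called 6 of the 12 and 11 of the 14. In the NK list, 2 of the 12 had negative log2 fold changes, Ncr1 (-0.18) and Klrb1c (-0.14). Klra7 was at 0.19, and none of these was called with all tumors. Of 12 dendritic cell genes 1 was called, Clec9a, with 0 called without tumor 5 and 6 without tumor 2, and of 10 neutrophil genes, 5 of them tested, 0. Among 6 chemokine genes of neutrophils, 5 of them tested, Cxcl3 and Cxcl5 were called higher with all tumors and without tumor 5. Cxcl1 and Cxcl2 had log2 fold changes of -0.26 and -0.33 and were not called. The list median was 0.85 with tumor 5 and -0.06 without it. Of 8 mesothelial and tumor identity genes with a DESeq2 adjusted p, Krt18, a keratin, and Cdkn2a, a cell cycle inhibitor, were called higher, and 0 were called without tumor 5. Of 11 endothelial genes Flt1, a VEGF receptor, was called, with 0 called without tumor 5 and 4 without tumor 2.

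Other genes higher in 5-FU+ICB were picked by size of change, among DESeq2 calls without overlap and with at least 50 counts on average. Il13ra2, the decoy receptor for IL-13, was at 1.40 to 2.48 CPM and 5.31 to 14.8 CPM (log2 fold change 2.14, DESeq2 adjusted p = 0.00126). Car4, a carbonic anhydrase, was at 2.54 to 6.34 CPM and 7.67 to 25.9 CPM (log2 fold change 2.11), and Tnfrsf11b, osteoprotegerin, a decoy for RANKL, at 1.17 to 2.97 CPM and 4.37 to 7.37 CPM (log2 fold change 1.65). Dsc2, a desmosomal cadherin, had the largest fold change of these, 4.38, but it was 2.33 without tumor 5, in which it stood at 26.0 CPM against 0.885 to 2.73 CPM in the other 4. Its 5-FU values rested on 3 to 15 counts per tumor, near the floor. By the smallest edgeR p, AA467197, whose transcript contains the precursor of miR-147, was next to Nos2. It was at 7.25, 10.0, 13.3, 4.94 and 8.66 CPM in 5-FU and 27.9, 19.8, 27.0, 39.9 and 24.0 CPM in 5-FU+ICB tumors (log2 fold change 1.65, SE 0.30, edgeR adjusted p = 0.0807). Sema7a, a membrane-anchored semaphorin, and Adam8, a metalloprotease of leukocytes, had log2 fold changes of 0.83 and 1.37 and the same edgeR adjusted p, and for each the groups did not overlap.

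Genes called lower in 5-FU+ICB, named by their p or size of change, included Tgfb3, C1qtnf3, Hsd11b2 and several genes of the matrix. Tgfb3, a TGF-beta ligand, was at 57.6, 49.6, 59.0, 65.5 and 48.0 CPM in 5-FU and 30.3, 40.5, 38.8, 30.2 and 28.7 CPM in 5-FU+ICB tumors without overlap (log2 fold change -0.73, SE 0.14, edgeR adjusted p = 0.0807, DESeq2 adjusted p = 0.000339). C1qtnf3, a secreted protein related to complement C1q, was at 9.78, 4.83, 14.6, 17.7 and 13.0 CPM and 2.44, 4.66, 3.98, 3.79 and 2.27 CPM (log2 fold change -1.80, edgeR adjusted p = 0.0807). Both were called by DESeq2 with and without tumor 5. Tgfb3 was the only call among 16 fibroblast and TGF-beta genes, of which 8 had positive and 8 negative log2 fold changes (median -0.01). Without tumor 2, DESeq2 called 4 of the 16 higher and 1 lower. Hsd11b2, whose enzyme inactivates corticosterone, was at 5.75, 2.54, 2.44, 18.1 and 13.9 CPM in 5-FU and 0.255, 0.148, 0.0804, 0.321 and 0.252 CPM in 5-FU+ICB tumors. These were 55 to 620 counts against 2 to 10 counts, so that the 5-FU+ICB values lie near the floor and the fitted log2 fold change of -5.31 (SE 1.04, DESeq2 adjusted p = 1.23e-05) is imprecise. Mfap4, a protein of elastic fibers, was at 147 to 274 CPM and 20.2 to 118 CPM (log2 fold change -1.41, DESeq2 adjusted p = 0.00856), and the cartilage matrix gene Cilp at 164 to 323 CPM and 48.2 to 138 CPM (log2 fold change -1.24, adjusted p = 0.00468). Kera, Osr2, Spon2, Gas2 and Lrrc17 had log2 fold changes between -2.40 and -1.25, and Kera was down to 1 count in 5-FU+ICB tumor 5. For Kera (keratocan, a matrix proteoglycan), Osr2 (a zinc finger transcription factor), Spon2 (a secreted matrix protein), Gas2 (an actin-associated protein), Mfap4, Cilp and Lrrc17 the lowest value was in 5-FU+ICB tumor 5, and Gas2 and Lrrc17 were not called without it (adjusted p = 0.116 and 0.0986). Gm26714, an antisense transcript with a log2 fold change of -1.71, cannot be told apart from a gene on the opposite strand unless the counting used strand, which the sources used here do not state.

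Among 16 collagen genes the median log2 fold change was -0.50, with 12 below 0, and 1 was called lower, Col6a2 (1006 to 2409 CPM and 423 to 1065 CPM, log2 fold change -0.99, DESeq2 adjusted p = 0.0484). It was not called without tumor 5 (adjusted p = 0.207), whereas without 5-FU+ICB tumor 2 DESeq2 called 6 of the 16 lower and edgeR 4. Col1a1 and Col3a1, the abundant fibrillar collagens, had log2 fold changes of -0.47 and -0.67 and were not called (adjusted p = 0.494 and 0.271). Proliferation genes had medians slightly below 0, at -0.26 over 20 mitotic and -0.21 over 19 DNA replication genes, and 0 of either list were called by DESeq2 or edgeR (0 and 0 at an unadjusted edgeR p under 0.05). Mki67, a marker of dividing cells, was at 225 to 526 CPM and 121 to 636 CPM. Tyms, the gene of the enzyme that 5-FU inhibits, was at 53.7 ± 8.53 CPM in 5-FU and 48.7 ± 12.5 CPM in 5-FU+ICB tumors (mean ± SD, n = 5, log2 fold change -0.14, SE 0.23), a difference smaller than the spread between tumors. Without 5-FU+ICB tumor 2, DESeq2 called 2 mitotic and 1 replication gene lower, counts near the share of 6.49% called lower over all genes. Of 18 p53 targets only Fas was called, with 0 called without tumor 5. Without tumor 2, 3 p53 targets were called higher and 4 lower, where 11.7% and 6.49% of all genes were.

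Whether ICB went with a different change on top of 5-FU than without it was tested as the difference of 2 differences, 5-FU+ICB minus 5-FU and ICB minus PBS, which share no tumor. By edgeR's quasi-likelihood test, 16 of 17916 genes passed (0.0893%), 14 with a smaller increase on top of 5-FU, and 4283 had an unadjusted p under 0.05. Of the 14, 8 were GBPs, and Cd274 and Nos2 were among the rest. Gm43302, also among the 14, holds 67.8% of the 31-base words of Gbp6. Gbp6 in turn holds 80.8% of those of Gbp10, so these calls may not be separate. For Gbp5 the log2 fold change was 1.47 with 5-FU and 4.07 without it, a difference of -2.59 (SE 0.45, edgeR adjusted p = 0.0484). The levels behind it were 17.2 ± 4.18 CPM in PBS (n = 4), 92.6 ± 55.6 CPM in 5-FU (n = 5), 289 ± 61.7 CPM in ICB (n = 5) and 257 ± 27.5 CPM in 5-FU+ICB tumors (n = 5), mean ± SD. The 2 ICB-treated groups thus overlapped while 5-FU alone stood above PBS in each of its tumors. Cd274 had the same form, with 9.94 to 12.4 CPM in PBS, 16.5 to 79.6 CPM in 5-FU, 151 to 261 CPM in ICB and 99.8 to 144 CPM in 5-FU+ICB tumors, and here the highest 5-FU+ICB tumor was below the lowest ICB tumor. The difference for Cd274 was -2.62 (SE 0.43, edgeR adjusted p = 0.0471). For Nos2 it was -4.36 (SE 0.80, adjusted p = 0.0484), from 0.811 to 2.67 CPM in PBS and 167 to 464 CPM in ICB tumors. Gzmb did not pass (difference -1.12, SE 0.37, edgeR adjusted p = 0.0862). The 2 genes with a positive difference, Nsdhl and Pmvk, belong to cholesterol synthesis. Their log2 fold changes were 0.21 (SE 0.18) and 0.24 (SE 0.15) on top of 5-FU, and -1.27 (SE 0.19) and -0.95 (SE 0.16) without it. The positive difference thus went with a decrease in ICB against PBS. The 16 calls were sensitive to the tool and the tumors, with 1542 by DESeq2's Wald test and 0 by edgeR without 5-FU+ICB tumor 5, when 4693 genes had an unadjusted p under 0.05. AC119228.1, C4a, Gm43302, Nsdhl and Pmvk are named because they passed this test, after their values were seen.

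**Figure D4:**
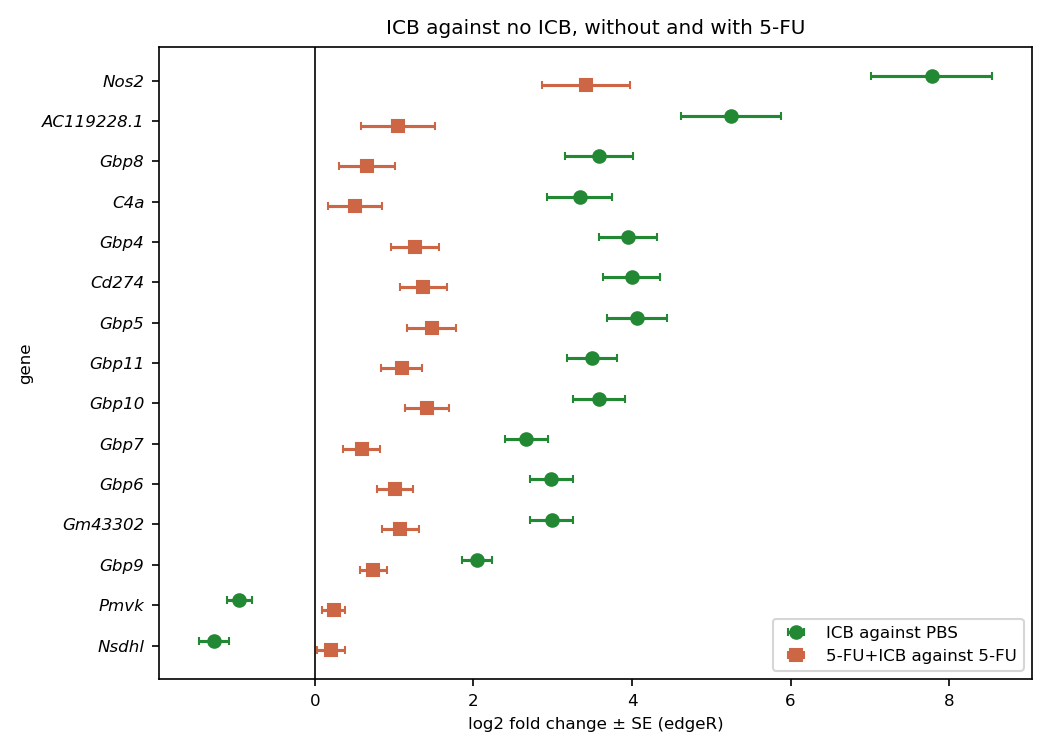
Log2 fold change with its SE (edgeR) for 15 of the 16 genes whose change with ICB differed with and without 5-FU, as circles for ICB against PBS and as squares for 5-FU+ICB against 5-FU. For 13 genes the square lies to the left of the circle, and for Nsdhl and Pmvk to the right.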

How the data were processed

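Whole-tumor RNA was sequenced as 100-base single-end reads on an Illumina HiSeq. Per the labels and the study's methods, the authors demultiplexed with bcl2fastq (2.20.0.422), quantified transcripts with kallisto (0.46.0) against GRCm38 (mm10) and summed them to genes with tximport, so the deposited values are estimated counts, not normalized (23.4% of values were not whole). Whether counting used strand is not given in the sources used here. Estimated counts were rounded, and 19582 of 55341 rows were 0 in every tumor.

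The main test was edgeR (4.0.16) quasi-likelihood with TMM scaling and filterByExpr, fitted in R (4.3.3) over 19 tumors (PBS 4, ICB 5, 5-FU 5, 5-FU+ICB 5). A prior count of 2 was used only for log2 CPM values. This edgeR fit had been planned for 20 tumors, but the labels give 4 in PBS. DESeq2 (1.42.0) Wald and limma (3.58.1) voom were alternatives. The DEG threshold was a Benjamini-Hochberg adjusted p below 0.05 with a change of more than 0.5 on the log2 scale. Scripts were tested on simulated data for this comparison, where the share of unchanged genes among the calls was above the nominal rate with DESeq2 and below it with edgeR, so single DESeq2 calls are less certain than their adjusted p states. No pair of tumors was close enough to be 1 library counted again. Labels do not name litters or cages, so p-values measure the spread between these tumors. Genes were named by edgeR calls, by the 10 with the largest change in each direction among DESeq2 calls without overlap and at least 50 counts on average, by the smallest edgeR p, and from 46 gene lists. Some items, withheld from these texts, are not reported here. The members and lists were chosen with earlier results of these data known. Gene coordinates are from GENCODE on GRCm38, in which 26 gene names were not found.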

Additional observations from a re-analysis of the deposited data

Results flagged for a closer look

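In 292 groups of 5 tumors, each a gene or a list mean in 1 treatment, 29 had a highest or lowest tumor far from the other 4 by Dixon's criterion. Chance gives about 1 in 20 only for independent groups that were not selected. These genes were partly named for their values and share the same tumors, so that rate cannot be applied here. Most of the 29 were 5-FU+ICB tumor 5 or tumor 2.

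5-FU+ICB tumor 5 lay far above the other 4 tumors of its group for Ido1 (10.7 CPM), Socs1 (62.9 CPM) and Glycam1 (496 CPM), and in the mean log2 CPM of the B cell list (6.65). It lay far below them for Osr2 (5.96 CPM), Spon2 (4.44 CPM), Col6a2 (423 CPM) and Msln (0.505 CPM), for the granzyme genes Gzmc (15.8 CPM), Gzmd (1.01 CPM) and Gzmf (0.404 CPM), and for Gbp2 (412 CPM), Gbp2b (464 CPM) and Gbp3 (209 CPM).

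5-FU+ICB tumor 2 lay far below for Pdcd1lg2 (11.2 CPM), Gbp10 (68.6 CPM), Ccl5 (20.1 CPM), Ass1 (48.6 CPM), Acta1 (0.266 CPM) and Aldoc (2.04 CPM). It was also lowest in mean log2 CPM for the lists of NK receptors and T-box factors (1.88), checkpoint and exhaustion receptors (2.1), the common gamma chain cytokine axis (3.79), the interferon gamma axis (4.52), T cell chemokine axes (4.38) and neutrophils (-0.0422). In the 5-FU group, tumor 2 was far below the others for Acta1 (3.84 CPM) and for the skeletal muscle list (-0.507), and tumor 4 for Ido1 (0.205 CPM).

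The change with ICB differed with and without 5-FU for 16 genes (edgeR interaction test with Benjamini-Hochberg adjustment), of which 15 are given, with an adjusted p between 0.0471 and 0.0496. The difference on the log2 scale was -4.20 for AC119228.1, -2.83 for C4a, -2.62 for Cd274, -4.36 for Nos2 and -1.91 for Gm43302. For the GBPs it was -2.68 for Gbp4, -2.59 for Gbp5, -1.97 for Gbp6, -2.08 for Gbp7, -2.93 for Gbp8, -1.31 for Gbp9, -2.17 for Gbp10 and -2.40 for Gbp11. It was positive for Nsdhl (1.48) and Pmvk (1.19).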

How the results depend on the processing

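The edgeR count of DEGs, 2 with all tumors, was 0 with DESeq2's size factors (3011 genes at an unadjusted p under 0.05), 1 without the filter, 3 with at least 10 counts in every tumor, 0 with only the 2 groups (2085 at an unadjusted p under 0.05) and 20 by limma-voom, and ranged from 0 to 1948 when each tumor was left out. DESeq2 called 156 with only the 2 groups and from 94 to 3154 when each tumor was left out. Leaving out both 5-FU+ICB tumors 2 and 5, chosen after seeing the data, gave 97 by edgeR and 1210 by DESeq2. Genes without overlap numbered 433 of 17916 without 5-FU+ICB tumor 5, a count that leaving out a tumor cannot lower. For the difference between changes with ICB, where edgeR called 16 genes, DESeq2 called 1542, and edgeR called 0 without 5-FU+ICB tumor 5 (4693 at an unadjusted p under 0.05). The cause of the other changes in these counts was not tested. Of the named genes, Gzmb and Cdc42ep2 lost their edgeR calls with DESeq2's size factors, with only the 2 groups, with the replicate block and without most single tumors, and the log2 fold change reversed for Acta1 (-0.41 to 1.19 with each tumor left out), which was not called. Medians of lists stayed within the spread between tumors in 177 cases and moved in 7, all with a tumor left out. Depth limits Hsd11b2, Gzmg, Marco, Ido2, Dsc2 and Kera, among others, which lie near the floor of 3 counts in some tumors.

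Replicate numbers are shared by the groups but nothing in the labels ties same-numbered tumors. Same-numbered deviations correlated at -0.307, 0.678, -0.018, 0.17 and 0.357, so the numbers were not taken as a pairing, and 2 of the 5 5-FU+ICB tumors correlated best with their own number. With the replicate number as a block, edgeR called 0 DEGs in 2 groups (2376 at an unadjusted p under 0.05) and 0 in all 4 groups (3127), DESeq2 called 723, and the difference between changes with ICB gave 0 (4023). The log2 fold change of Acta1 was -0.28 with the block in 2 groups.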
